A study of Mus musculus with 23 samples.

Results

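The 10 genes described here encode the MD-1 and RP105 pair (Ly86 and Cd180), MD-2 (Ly96), CD14 (Cd14), the Toll-like receptors Tlr1, Tlr2, Tlr4, Tlr7 and Tlr9, and the trafficking protein Unc93b1. They were chosen by symbol from a list drawn up with the group levels in these arrays known, and the probe set of each was selected on its mean signal over the 23 arrays, the highest where a symbol had several. They are 10 of 19938 symbols measured and of 15542 genes tested, and all 10 passed the filter on low values. The p-values below therefore place each gene within the fit of all genes and do not support the choice of the list.

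Toll-like receptors recognise microbial lipids, proteins and nucleic acids and signal mainly through the adaptor MyD88 to NF-kB and interferon regulatory factors. TLR4 binds lipopolysaccharide together with the small secreted protein MD-2, after CD14 has delivered it. RP105, the product of Cd180, is a Toll-like receptor relative without the intracellular signalling domain. It needs MD-1, the product of Ly86, to reach the cell surface, where the pair modulates lipopolysaccharide responses of B cells and restrains TLR4 in myeloid cells. TLR7 and TLR9 sense RNA and DNA inside endosomes, and UNC93B1 carries them there from the endoplasmic reticulum. B cells, monocytes and plasmacytoid dendritic cells all use parts of this system.

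All mice in the comparisons received a single 2 Gy dose at 2 months of age, and no unirradiated mice are among the samples. Bone marrow RNA was measured in leukemias of 10 Pax5+/- mice, in preleukemic pro-B and pre-B cells of 7 Pax5+/- mice, in leukemias of 3 wild-type (WT) mice and in preleukemic pro-B and pre-B cells of 3 WT mice, with 1 array per mouse. Preleukemic cells were taken 3 weeks after the dose, while the labels give no time for the leukemias, so that leukemia, age and time since irradiation cannot be told apart. Pax5+/- mice carry 1 functional copy of Pax5, whose product is required for B cell commitment. The labels state neither the strain nor a sort, and they describe the leukemic samples as pro-B cells in one field and as marrow cells in another. The p-values measure the spread between mice. Their precision is limited by how few arrays there are, above all in the 2 WT groups of 3.

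Values are log2 signals, and array medians ran from 6.06 to 6.2. Pax5 ranged from 6.85 to 11.42 in Pax5+/- leukemias, against 11.31 to 11.53 in Pax5+/- preleukemic samples; WT leukemias had 6.32 to 10.78, against 11.45 to 12.06 in WT preleukemic samples. The position of the Pax5 probes relative to the deletion was not tested. The mean of 9 B-lineage markers was 9.72 to 11.26 in Pax5+/- leukemias, against 11.85 to 12.08 in Pax5+/- preleukemic samples. In WT mice it was 8.43 to 10.68 in leukemias, against 11.85 to 12.21 before leukemia. Several samples stood apart. Pax5+/- leukemia 7 held the highest Pax5 level of the leukemias, WT leukemia 15 the lowest Pax5 level and the lowest B-lineage mean, and WT preleukemic sample 20 a neutrophil marker mean of 11.06 and a plasmacytoid dendritic cell marker mean of 9.35, against at most 6.64 and 6.93 in the other WT preleukemic samples. Xist exceeded the Y-linked Eif2s3y in 5 of 10 Pax5+/- leukemias, 3 of 7 Pax5+/- preleukemic samples, 3 of 3 WT leukemias and 0 of 3 WT preleukemic samples, so sex and stage coincide in WT mice. In bulk RNA, fewer cells of a type and less RNA per cell cannot be told apart.

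RefSeq promoter windows of GRCm38.p6, from 250 bases before to 50 bases after a start, were examined for 5 of the 10 genes. Windows of the other genes, Cd14 among them, were not examined, so 5 is not a count of genes with a window. Those of Ly86 (chr13:37345095-37345394, plus strand), of its partner Cd180 (chr13:102693297-102693596, plus strand) and of Tlr9 (chr9:106222348-106222647, plus strand) are shown because Ly86 carries the genotype difference, Cd180 encodes its partner and was not called between genotypes, and Tlr9 fell in leukemia of both genotypes. Capitals mark matches, on either strand, to GAGGAA (a core of the sites bound by PU.1 and its relatives), ATGCAAAT (the octamer bound by Oct factors of B cells) and GAAA followed, after any 2 bases, by GAAA (a core of interferon response elements), and no matches overlapped.
Ly86: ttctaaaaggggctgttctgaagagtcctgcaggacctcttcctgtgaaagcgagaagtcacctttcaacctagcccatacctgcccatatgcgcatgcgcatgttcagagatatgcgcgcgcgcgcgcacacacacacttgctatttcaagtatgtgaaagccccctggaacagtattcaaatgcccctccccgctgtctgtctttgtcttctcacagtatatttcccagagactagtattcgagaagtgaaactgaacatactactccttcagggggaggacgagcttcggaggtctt
Cd180: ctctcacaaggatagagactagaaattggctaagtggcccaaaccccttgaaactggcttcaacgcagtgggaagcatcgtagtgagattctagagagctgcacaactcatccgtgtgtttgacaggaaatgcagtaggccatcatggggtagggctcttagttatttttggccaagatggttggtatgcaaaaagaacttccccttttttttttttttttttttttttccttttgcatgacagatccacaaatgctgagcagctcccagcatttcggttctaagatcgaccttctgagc
Tlr9: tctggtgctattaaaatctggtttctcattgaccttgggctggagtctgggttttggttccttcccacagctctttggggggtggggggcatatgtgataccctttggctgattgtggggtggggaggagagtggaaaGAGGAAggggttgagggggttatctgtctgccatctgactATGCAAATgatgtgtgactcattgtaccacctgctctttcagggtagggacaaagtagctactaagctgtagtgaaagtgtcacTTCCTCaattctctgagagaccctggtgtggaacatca
The Tlr9 window held GAGGAA starting 112 bases before the start on the plus strand and 13 bases after it on the minus strand, and ATGCAAAT starting 72 bases before the start on the plus strand. The windows of Ly86, Cd180 and Tlr2 held none of the motifs, and a Tlr1 window held GAGGAA starting 23 bases before its start. Among 32851 promoter windows of the same length, 28.3% held GAGGAA, 1.74% held ATGCAAAT and 3.44% held the spaced GAAA pair. A match is a run of letters, and binding was not measured.

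Between leukemia and the preleukemic stage, Tlr7, Ly86 and Tlr1 were higher and Tlr9 and Unc93b1 lower in Pax5+/- mice (limma, adjusted p under 0.05), which is 5 of the 10 genes where 64.6% of all genes tested were called. Those called higher were 3 of 10, against 28% of all genes, and those called lower were 2 of 10, against 36.5%. In WT mice Ly86 and Tlr7 were higher and Tlr9 and Unc93b1 lower in leukemia, 4 of 10 genes where 37.2% of all genes were called (17.9% higher and 19.3% lower). The median log2 difference of the 10 genes was 0.26 in Pax5+/- mice and 0.03 in WT mice, against -0.05 and -0.06 over all genes tested. Between genotypes Ly86 alone was called among the 10 genes, higher in Pax5+/- at both stages, where 0.624% of all genes were called before leukemia and 0.341% in leukemia. The members' median genotype difference was -0.12 before leukemia and 0.10 in leukemia, against 0 and 0.01 over all genes tested.

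**Figure D1:**
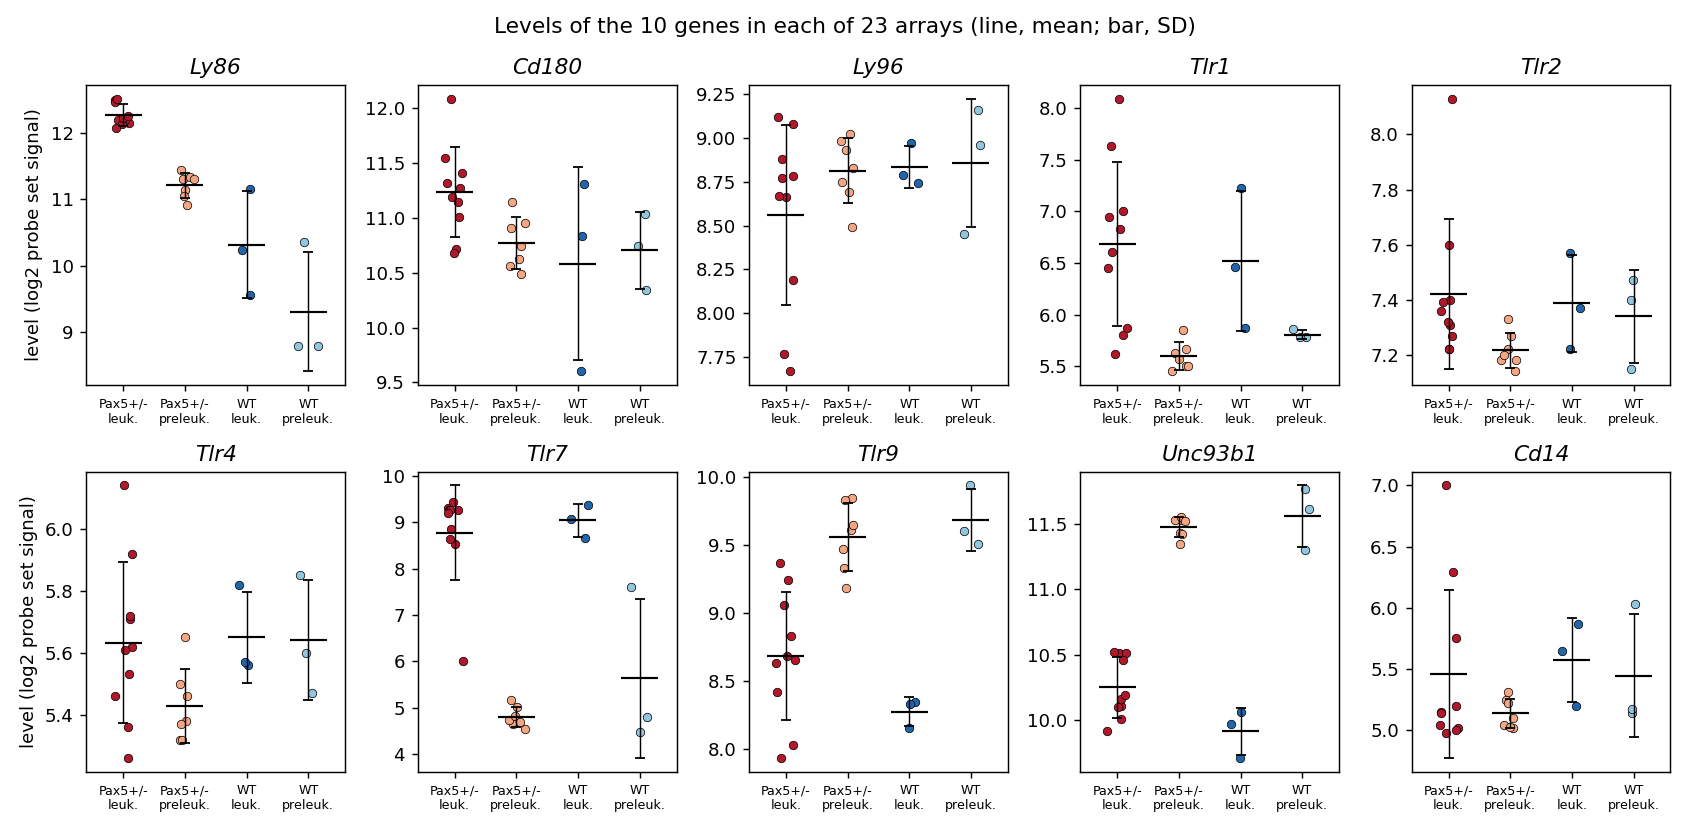
Log2 probe set signals (vertical axes, 1 scale per gene) of the 10 genes in each of the 23 arrays, by genotype and stage; points are mice, lines are means and bars are SDs. Ly86 lies between 12.08 and 12.52 in every Pax5+/- leukemia, Tlr7 is high in all leukemias but sample 7, and Unc93b1 is lower in leukemias of both genotypes.

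Ly86, which encodes the secreted MD-1 chaperone of RP105, was the 1 gene of the 10 called between the genotypes. Its log2 level was 12.08 at the lowest, 12.2 at the median and 12.52 at the highest in the 10 Pax5+/- leukemias. The 7 Pax5+/- preleukemic samples had 10.91, 11.3 and 11.44 on the same measures. Its levels were 11.16, 9.56 and 10.23 in WT leukemias 14, 15 and 17, and 8.78, 8.79 and 10.35 in WT preleukemic samples 18, 19 and 20. Every Pax5+/- leukemia thus lay above every Pax5+/- preleukemic sample and above every WT sample, and every Pax5+/- preleukemic sample lay above every WT preleukemic sample. Between the Pax5+/- stages, 11.7% of all genes were likewise apart and higher in leukemia. The ranges of Pax5+/- preleukemic samples and WT leukemias overlapped. The groups were ordered from Pax5+/- leukemias (mean 12.27 ± 0.16, SD, n = 10) through Pax5+/- preleukemic samples (11.21 ± 0.19, n = 7) and WT leukemias (10.32 ± 0.80, n = 3) to WT preleukemic samples (9.31 ± 0.90, n = 3). The SD was larger in both WT groups, in which samples 15 and 20 were the lowest leukemia and the highest preleukemic sample.

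Before leukemia, Ly86 was 3.74-fold higher in Pax5+/- than in WT cells (log2 difference 1.90, SE 0.27, 95% interval 1.33 to 2.47, limma adjusted p = 0.000628). By p it ranked 16 among 15542 genes, of which 36 were called higher in Pax5+/- (0.232%) and 61 lower (0.392%). In leukemia it was 3.88-fold higher in Pax5+/- than in WT (log2 difference 1.95, SE 0.26, interval 1.41 to 2.50, limma adjusted p = 0.00325) and ranked 1 among all genes by p, where 4 genes were called higher (0.0257%) and 49 lower (0.315%). That count over all genes rested on single WT leukemias: 160 genes were called without sample 14, 0 without sample 15 and 5 without sample 17, against 53 with all samples. Before leukemia 40 genes were called without sample 19, against 97 with all samples. These comparisons have no sample in common. Ly86 was the 1 gene called higher in both, which is 2.78% of the 36 genes called higher before leukemia and 25% of the 4 called higher in leukemia. The groups did not overlap at either stage, as was the case for 5.19% of all genes before leukemia (2.09% higher and 3.1% lower in Pax5+/-) and 0.579% in leukemia (0.27% higher and 0.309% lower). Without WT preleukemic sample 20 the difference before leukemia was 2.43 (limma adjusted p = 3.31e-06). Without WT leukemia 15 the difference in leukemia was 1.58 and was no longer called (limma adjusted p = 0.166), whereas without both samples 15 and 20 it was 1.58 with a limma adjusted p of 0.000174. Each SE here comes from 1 estimate of the spread of Ly86 shared by the 4 groups. The SDs were 0.16 and 0.19 in the Pax5+/- groups and 0.80 and 0.90 in the WT groups. Intervals are therefore narrower and p-values smaller than the WT spread alone would give.

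**Figure D2:**
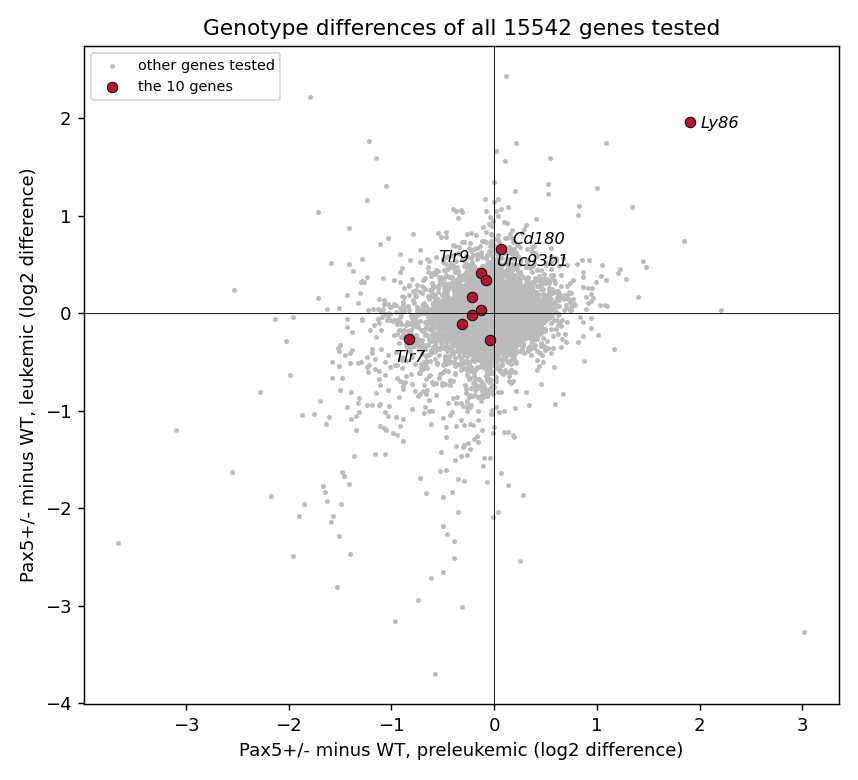
Log2 differences between Pax5+/- and WT of every gene tested, before leukemia (horizontal axis) and in leukemia (vertical axis), with the 10 genes in red. Ly86 sits at 1.90 and 1.95, and the other 9 lie between -0.83 and 0.07 before leukemia and between -0.27 and 0.66 in leukemia.

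Marker lists were set beside the genotype difference of Ly86 before leukemia. Limma called 0 of 14 monocyte and macrophage, 0 of 12 neutrophil and 0 of 6 plasmacytoid dendritic cell markers between the genotypes. It called 0 of 8 conventional dendritic cell, 0 of 6 mature B cell and 0 of 9 B-lineage markers. Of all genes tested 0.624% were called in this comparison, so counts of 0 in lists this short do not show like cell content. Median log2 differences of the lists were -1.50 for neutrophil, -0.87 for plasmacytoid, -0.21 for monocyte and -0.05 for B-lineage markers, Pax5+/- minus WT, against 0 over all genes tested, and the part of other cells in the result was not tested. The neutrophil marker mean was 6.20 to 6.98 in Pax5+/- preleukemic samples and 6.59, 6.64 and 11.06 in WT preleukemic samples. The mean of the plasmacytoid markers was 6.65 to 7.14 in Pax5+/- preleukemic samples and 6.73, 6.93 and 9.35 in WT preleukemic samples. That of the monocyte markers was 5.99 to 6.31 in Pax5+/- and 6.17, 6.26 and 7.32 in WT preleukemic samples. Of the 14, 6 were at or below the array median in every Pax5+/- preleukemic sample and 3 were above it in every one. In WT preleukemic samples these counts were 5 and 6. Of 12 neutrophil markers, 8 were above the median in every sample of each preleukemic group. In the Pax5+/- group 2 were at or below it in every sample, and in the WT group 0. In leukemia 3 of 5 erythroid markers were lower in Pax5+/- than in WT. Of the monocyte, neutrophil, dendritic and B-lineage lists 0 markers were called, where 0.341% of all genes were called. In leukemia the median difference was -1.80 for neutrophil, -0.25 for monocyte, 0.37 for plasmacytoid and 0.68 for B-lineage markers, against 0.01 over all genes tested. WT leukemia 15 had both the lowest B-lineage mean and the lowest Ly86 level of the leukemias. With the plasmacytoid marker mean as a covariate, which was added after the data had been seen, the Ly86 difference was 2.14 before leukemia and 1.87 in leukemia (limma adjusted p = 0.000109 and 0.00154). With sex as a covariate it was 1.81 and 2.06 (limma adjusted p = 0.00239 and 0.00456). With the B-lineage or the monocyte mean it was 1.93 or 2.02 before leukemia (limma adjusted p = 0.000459 and 0.000573). In leukemia it was 1.58 to 2.11 over the 18 alternatives other than leaving out each sample, which include these covariates (limma adjusted p at most 0.0268). With the B-lineage covariate 2 of all genes were called there.

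With leukemia, Ly86 was 2.08-fold higher in Pax5+/- leukemias than in Pax5+/- preleukemic cells (log2 difference 1.06, SE 0.20, limma adjusted p = 9.56e-05). It was 2.01-fold higher in WT leukemias than in WT preleukemic cells (log2 difference 1.01, SE 0.32, limma adjusted p = 0.0195), with overlapping groups. The difference between these stage effects was 0.05 (interval -0.74 to 0.84, limma adjusted p = 0.993), so its size is bounded only loosely. The comparison of stages in Pax5+/- mice and that of genotypes before leukemia share the 7 Pax5+/- preleukemic samples. The WT call was lost without sample 14, 18 or 19 (log2 differences 0.59, 0.75 and 0.75), with sex as a covariate (0.79, limma adjusted p = 0.115) and when the 2 WT groups were fitted alone (limma adjusted p = 0.206). Without sample 20 the WT difference was 1.53. As sex and stage coincide in WT mice, the fit with sex cannot separate them there. Monocyte markers rose with leukemia, as given for Tlr7, and with their mean as a covariate the Ly86 stage difference was 0.63 in Pax5+/- and 0.58 in WT mice (limma adjusted p = 0.231 and 0.401). With the B-lineage mean it was 1.45 and 1.56 (limma adjusted p = 0.00194 and 0.0437). In both genotypes neither marker mean overlapped between the stages. Stage differences with these covariates, here and for the genes below, are therefore extrapolations and cannot separate the markers from the stage.

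The 10 nearest tested neighbours of Ly86 on chromosome 13, a set looked up after its values had been seen, had genotype differences of -0.65 to 0.39 before leukemia and -0.22 to 0.52 in leukemia, and limma called 0 of 10 at either stage. Of the 10 nearest neighbours of Cd180, on the same chromosome, 1 was called before leukemia, the peptidase gene Nln with a log2 difference of -0.67 (limma adjusted p = 0.00339), and 0 in leukemia. 

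Cd180, which encodes the receptor RP105 that binds MD-1, did not follow Ly86 between genotypes. Its log2 level was 10.68, 11.23 and 12.09 (lowest, median and highest) in Pax5+/- leukemias and 10.49, 10.74 and 11.15 in Pax5+/- preleukemic samples. WT leukemias 14, 15 and 17 had 11.31, 9.60 and 10.84, and WT preleukemic samples had 10.34, 10.74 and 11.04. All groups overlapped, with the lowest level in WT leukemia 15, which was also the lowest WT leukemia for Ly86, Pax5 and the B-lineage mean. The difference between Pax5+/- and WT was 0.07 before leukemia (interval -0.52 to 0.66) and 0.66 in leukemia (interval 0.09 to 1.22, unadjusted p = 0.0253, limma adjusted p = 0.686). The leukemic value rested on single WT leukemias, being 0.16 without sample 15 and 1.02 without sample 14. Between the stages it was 0.46 in Pax5+/- mice (interval 0.04 to 0.89, limma adjusted p = 0.0518) and -0.12 in WT mice (interval -0.83 to 0.58, limma adjusted p = 0.792). The Pax5+/- stage difference passed the threshold in 12 of the other settings, for example at 0.46 without WT leukemia 15 (limma adjusted p = 0.0178) and at 1.03 with the B-lineage mean as a covariate (limma adjusted p = 0.0174). It was 0.00 with the monocyte mean and 0.24 with the plasmacytoid mean as a covariate (limma adjusted p = 0.996 and 0.351).

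The genes of the lipopolysaccharide receptor on the cell surface did not pass the test between stages or genotypes. Ly96, which encodes the TLR4 partner MD-2, had 7.67, 8.72 and 9.12 (lowest, median and highest) in Pax5+/- leukemias and 8.49, 8.83 and 9.02 in Pax5+/- preleukemic samples. WT leukemias had 8.97, 8.74 and 8.79, and WT preleukemic samples had 9.16, 8.45 and 8.96. Leukemias 7 and 4, at 7.67 and 7.77, lay below every other sample, and the groups overlapped in every comparison. Its stage difference was -0.25 in Pax5+/- mice (interval -0.63 to 0.12, limma adjusted p = 0.223) and -0.02 in WT mice (interval -0.65 to 0.60).

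Tlr4, the lipopolysaccharide receptor itself, stayed below the array median on all 23 arrays. It ranged from 5.26 to 6.14 in Pax5+/- leukemias (median 5.62) and from 5.32 to 5.65 in Pax5+/- preleukemic samples (median 5.38). It was 5.56, 5.82 and 5.57 in WT leukemias and 5.60, 5.47 and 5.85 in WT preleukemic samples. The stage difference of 0.20 in Pax5+/- mice (interval 0.00 to 0.41) was not called (limma adjusted p = 0.0703), and signals this low limit what a difference can show.

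Cd14, the lipopolysaccharide carrier of monocytes, was below the array median in all but 2 samples, Pax5+/- leukemias 2 and 3 with 7.00 and 6.29. Its range was 4.98 to 7.00 in Pax5+/- leukemias (median 5.14) and 5.02 to 5.31 in Pax5+/- preleukemic samples (median 5.10). WT leukemias had 5.20, 5.65 and 5.87, and WT preleukemic samples had 5.14, 5.17 and 6.03, the last in sample 20. The groups overlapped, and the stage difference was 0.32 in Pax5+/- mice (interval -0.18 to 0.81) and 0.13 in WT mice (interval -0.70 to 0.95). Leukemia 2 had also the highest monocyte marker mean of all samples, 9.41. With the monocyte mean as a covariate the Cd14 stage difference turned to -1.15 in Pax5+/- and -1.34 in WT mice (limma adjusted p = 0.00544 and 0.00972), and that of Ly96 in Pax5+/- mice was -1.11 (limma adjusted p = 0.00713).

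Of the receptors for bacterial lipoproteins, Tlr1 was higher in Pax5+/- leukemia and Tlr2 did not pass the test. Tlr1, which pairs with TLR2 to bind triacylated lipopeptides, had 5.62, 6.72 and 8.09 (lowest, median and highest) in Pax5+/- leukemias and 5.45, 5.57 and 5.85 in Pax5+/- preleukemic samples. WT leukemias had 6.46, 7.22 and 5.87, and WT preleukemic samples had 5.86, 5.78 and 5.78. Leukemias 7 and 5, at 5.62 and 5.80, lay inside the preleukemic range, leukemia 3 lay just above it at 5.87, and the other 7 had at least 6.45. The WT groups did not overlap, by a margin of 5.87 against 5.86, as was the case for 44.4% of all genes (21.1% higher and 23.3% lower in WT leukemia). The log2 difference was 1.09 in Pax5+/- mice (2.13-fold, SE 0.28, limma adjusted p = 0.00187) and 0.71 in WT mice (SE 0.46, interval -0.24 to 1.66, limma adjusted p = 0.226).

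All preleukemic Tlr1 values were below the array median. Tlr1 and Tlr6 are close paralogs, and the sharing of probe sequence between them was not tested. The Pax5+/- call was lost with the monocyte marker mean as a covariate (0.61, limma adjusted p = 0.436), and with the B-lineage marker mean the difference was -0.06 (limma adjusted p = 0.905). Tlr2, the lipoprotein receptor common to the pairs with TLR1 and TLR6, had 7.22, 7.34 and 8.13 in Pax5+/- leukemias and 7.14, 7.20 and 7.33 in Pax5+/- preleukemic samples. Its levels were 7.22, 7.37 and 7.57 in WT leukemias and 7.40, 7.15 and 7.47 in WT preleukemic samples. Leukemia 2 held the highest Tlr1, Tlr2, Tlr4 and Cd14 levels of the 23 arrays, and the Tlr2 groups overlapped. The Tlr2 stage difference was 0.20 in Pax5+/- mice (interval 0.00 to 0.41, limma adjusted p = 0.0777) and 0.05 in WT mice (interval -0.30 to 0.39).

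Tlr7, the X-linked endosomal receptor for single-stranded RNA, showed the largest stage difference of the 10 genes in both genotypes. Its log2 level was 6.00, 9.22 and 9.44 (lowest, median and highest) in Pax5+/- leukemias and 4.54, 4.74 and 5.17 in Pax5+/- preleukemic samples. WT leukemias 14, 15 and 17 had 8.66, 9.38 and 9.07, and WT preleukemic samples 18, 19 and 20 had 4.48, 4.81 and 7.61. In 9 of 10 Pax5+/- leukemias the level was at least 8.53, leukemia 7 stood at 6.00, and the groups did not overlap in either genotype. Of all genes, 22.4% did not overlap between the stages in Pax5+/- mice (11.7% higher and 10.8% lower in leukemia). In WT mice 44.4% did not overlap (21.1% higher and 23.3% lower). The difference was 3.97 in Pax5+/- mice (15.7-fold, SE 0.42, limma adjusted p = 8.61e-08) and 3.40 in WT mice (10.6-fold, SE 0.70, limma adjusted p = 0.000866). It exceeded the differences of 99.92% and 99.83% of genes tested. The Tlr7 signal lay below the 30th percentile of its array in all 7 Pax5+/- preleukemic samples and in WT samples 18 and 19, so the gene passed the filter through the other arrays and had to differ. Raising such values to the 30th percentile was an alternative added after the data had been seen. Tlr7 was then 11.6-fold higher in Pax5+/- leukemia and 8.02-fold higher in WT leukemia (log2 differences 3.53 and 3.00, limma adjusted p = 1.36e-07 and 0.00126). The same arrays carried the gene through the filter, so these p-values are no separate support. The 30th percentile is a filter level and not a measured detection limit.

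Among leukemias Tlr7 was lowest in leukemia 7, where Pax5 was highest (Pax5 11.42, B-lineage marker mean 11.26). This is 1 sample, and WT leukemias 14 and 17 had Pax5 of 10.68 and 10.78 with Tlr7 of 8.66 and 9.07. Over the 10 Pax5+/- leukemias, Tlr7 and the B-lineage mean had r = -0.46 (permutation, adjusted p = 0.439) and rho = 0.01. Without the 2 leukemias of most extreme B-lineage mean r was 0.23. Among preleukemic samples Tlr7 was highest in sample 20. The plasmacytoid, neutrophil, monocyte, conventional dendritic, T cell and erythroid marker means were also highest there, and the megakaryocyte mean was not. Between the stages, monocyte and macrophage markers rose with Tlr7. Limma called 11 of 14 higher in Pax5+/- leukemia and 7 of 14 in WT leukemia. Their means were 7.01 to 9.41 in Pax5+/- leukemias, against 5.99 to 6.31 in Pax5+/- preleukemic samples. In WT mice the means were 8.30 to 8.47 in leukemias and 6.17 to 7.32 before leukemia. Of the plasmacytoid markers 4 of 6 were higher in Pax5+/- leukemia, with means of 6.70 to 9.33 in leukemias and 6.65 to 7.14 in preleukemic samples, while in WT leukemia 0 of 6 were higher and 1 lower. Megakaryocyte markers rose most, 5 of 5 in either genotype (median log2 differences 2.92 and 2.93), with means of 8.20 to 11.21 in Pax5+/- leukemias, against 6.61 to 6.82 in Pax5+/- preleukemic samples, and 9.78 to 10.47 in WT leukemias, against 6.70 to 6.81 in WT preleukemic samples. Of 12 neutrophil markers, 9 were called higher in Pax5+/- leukemia (median 1.95) and 0 in WT leukemia (median 2.05). The part of these cells in the result was not tested. With the monocyte mean as a covariate the Tlr7 difference was 2.87 in Pax5+/- mice (limma adjusted p = 0.0105) and 2.30 in WT mice (limma adjusted p = 0.0938). With the B-lineage mean it was 2.98 and 2.01 (limma adjusted p = 0.00241 and 0.211), and with the plasmacytoid mean 3.33 and 3.59 (limma adjusted p = 8.12e-07 and 8.4e-05). With sex as a covariate the WT difference was 3.08 (limma adjusted p = 0.00813). Sex and stage coincide in WT mice, so this fit takes the sex effect from Pax5+/- mice alone and cannot separate sex from stage. Without sample 20 the WT difference was 4.39.

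**Figure D3:**
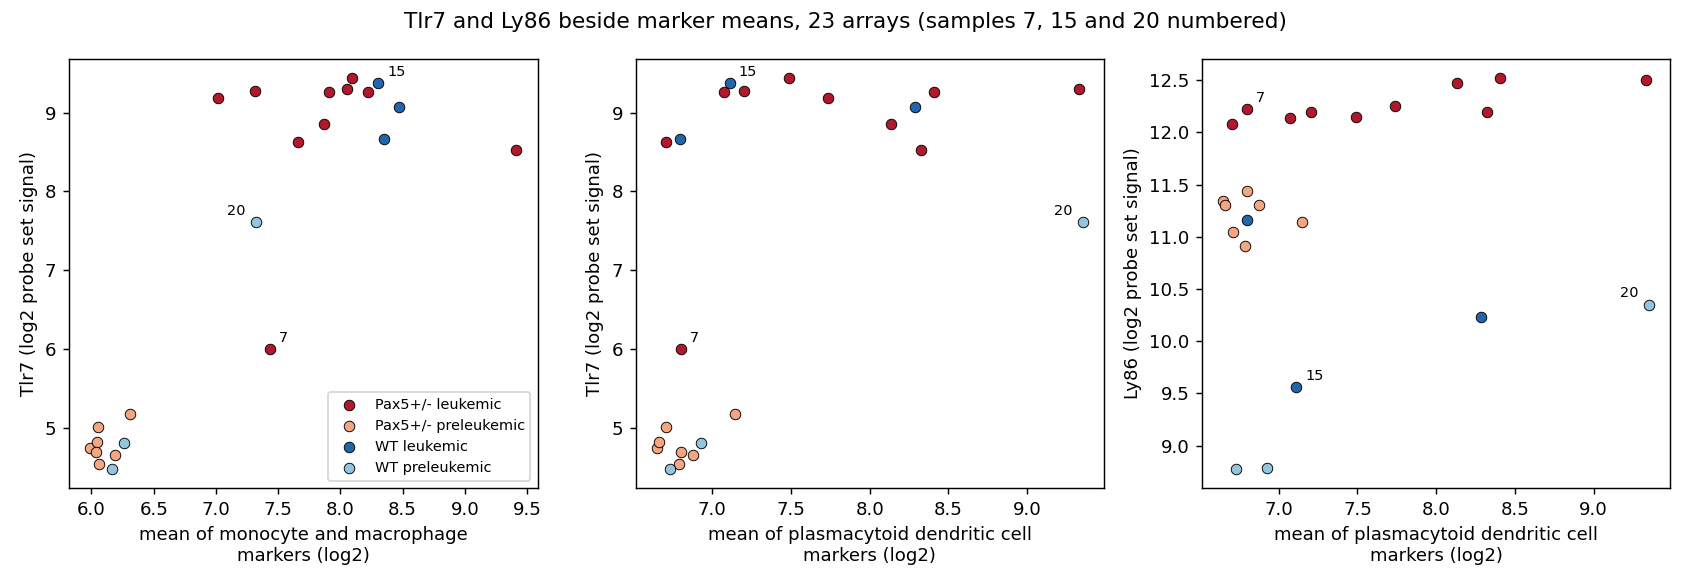
Tlr7 (left and middle) and Ly86 (right) log2 signals against the mean log2 signal of monocyte and macrophage or plasmacytoid dendritic cell markers in the 23 arrays, coloured by group. Leukemias other than sample 7 have Tlr7 at 8.53 or more. Monocyte marker means are 7.01 to 9.41 in Pax5+/- and 8.3 to 8.47 in WT leukemias, against 5.99 to 6.31 and 6.17 to 7.32 before leukemia. These means do not overlap between the stages in either genotype, so the figure cannot separate the monocyte markers from the stage. Within each stage every Pax5+/- sample lies above every WT sample in Ly86.

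Tlr9 and Unc93b1, the endosomal DNA receptor and the carrier of both endosomal receptors, fell in leukemia in both genotypes, opposite to Tlr7. Tlr9 had 7.93, 8.66 and 9.37 (lowest, median and highest) in Pax5+/- leukemias and 9.18, 9.61 and 9.85 in Pax5+/- preleukemic samples. WT leukemias had 8.15, 8.34 and 8.33, and WT preleukemic samples had 9.60, 9.94 and 9.51. Leukemias 1 and 2, at 9.24 and 9.37, reached into the Pax5+/- preleukemic range. The WT groups did not overlap, as was the case for 44.4% of all genes (21.1% higher and 23.3% lower in leukemia). The difference was -0.88 in Pax5+/- mice (1.84-fold lower, SE 0.17, limma adjusted p = 0.000166) and -1.41 in WT mice (2.66-fold lower, SE 0.28, limma adjusted p = 0.000683).

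Unc93b1 had 9.92, 10.18 and 10.52 in Pax5+/- leukemias and 11.34, 11.52 and 11.55 in Pax5+/- preleukemic samples. WT leukemias had 9.71, 9.97 and 10.06, and WT preleukemic samples had 11.61, 11.76 and 11.30. Of all genes, 22.4% (10.8% lower in leukemia) did not overlap between the Pax5+/- stages and 44.4% (23.3% lower) between the WT stages. For Unc93b1 the stages were apart in both genotypes. The Pax5+/- groups were separated by 10.52 against 11.34, including leukemia 7 at 10.10. The difference was -1.23 in Pax5+/- mice (2.34-fold lower, SE 0.09, limma adjusted p = 4.75e-10) and -1.64 in WT mice (3.12-fold lower, SE 0.15, limma adjusted p = 1.06e-07). B-lineage markers fell with them, 7 of 9 in Pax5+/- and 9 of 9 in WT leukemia, and the part of that in the result was not tested. Both genes were called in both genotypes with the B-lineage or the monocyte mean as a covariate. As neither mean overlapped between the stages, those fits cannot separate the markers from the stage.

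The stage effects were compared directly between the genotypes. Limma's interaction called 0 of the 10 genes, where 0.0965% of all genes (15) were called, and the difference of stage effects had an unadjusted p under 0.05 for 1 of the 10. That gene was Unc93b1, whose fall was 0.42 smaller in Pax5+/- than in WT mice (interval 0.05 to 0.79, p = 0.0275, limma adjusted p = 0.636). The intervals of Tlr7 (0.57, -1.14 to 2.27), Tlr1 (0.38, -0.73 to 1.49) and Cd180 (0.59, -0.23 to 1.41) were wide, so that equal stage effects are not shown. The Cd180 value was 0.09 without WT leukemia 15. Between genotypes the 9 genes other than Ly86 had limma adjusted p-values of 0.519 or more, with differences of -0.83 (Tlr7) to 0.07 (Cd180) before leukemia and -0.27 (Ly96) to 0.66 (Cd180) in leukemia. The Tlr7 difference of -0.83 rested on sample 20 and was 0.16 without it.

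**Figure D4:**
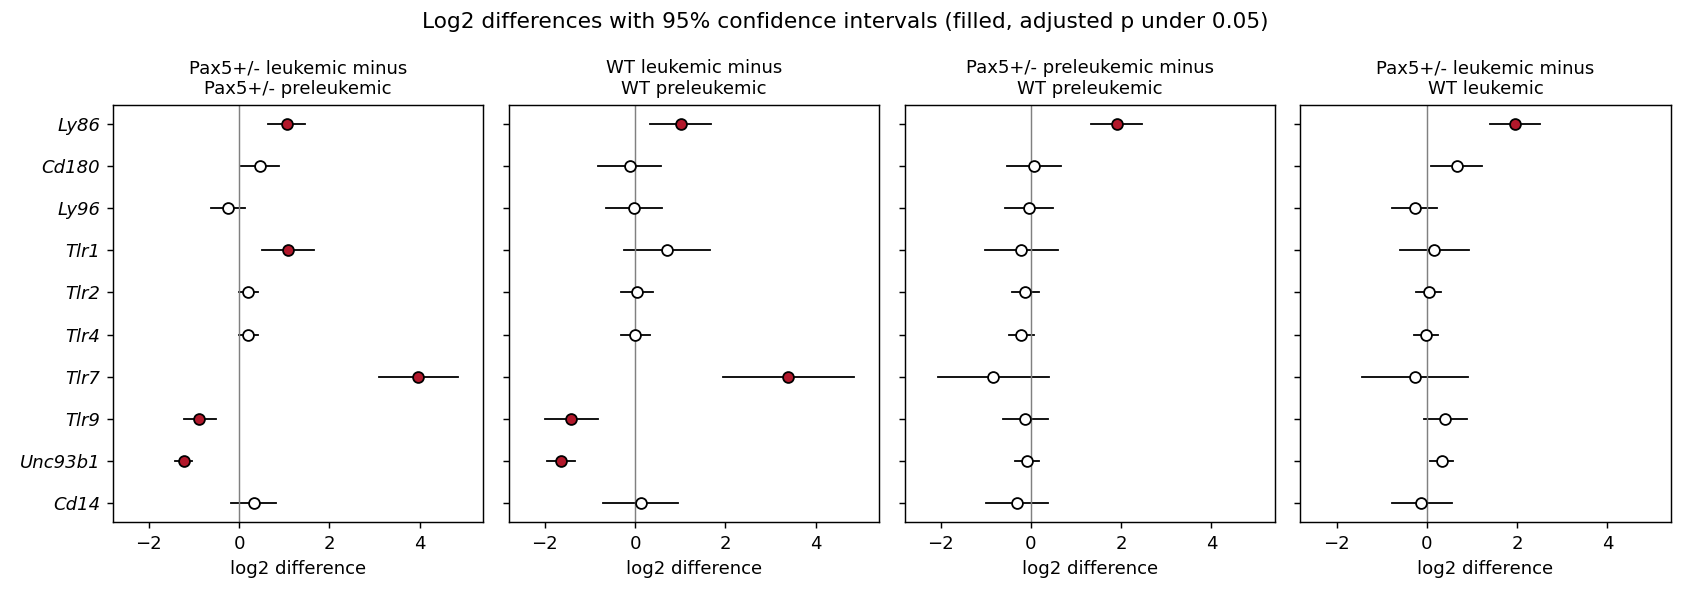
Fitted log2 differences (points) with 95% confidence intervals (lines) of the 10 genes in the 4 comparisons named above the panels; filled points have a limma adjusted p under 0.05. Stage differences are called for Tlr7, Tlr9, Unc93b1 and Ly86 in both genotypes, and genotype differences for Ly86 alone.

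Among the 10 Pax5+/- leukemias the genes varied to different extents, with an SD of 0.16 for Ly86 and 0.23 for Unc93b1, against 0.80 for Tlr1 and 1.02 for Tlr7. Of 45 pairs of the 10 genes, 0 had a correlation with an adjusted p under 0.05 (permutation test, 100000 resamples, two-sided, adjusted over the 45), and 3 had an unadjusted p under 0.05. Ly86 and Tlr4 had r = -0.74 and rho = -0.83 (n = 10, permutation p = 0.0157 and 0.00475, adjusted 0.351 and 0.214), and r = -0.59 without the 2 leukemias of most extreme Ly86. Ly86 and its partner Cd180 had r = 0.45 and rho = 0.26 (permutation p = 0.198 and 0.476), and 0.15 without the 2 extreme leukemias. Of 40 relations with 4 marker means, 0 passed after adjustment and 9 had an unadjusted p under 0.05. Ly86 and the plasmacytoid mean had r = 0.79 and rho = 0.77 (n = 10, permutation p = 0.00527, adjusted p = 0.114 for r), and r = 0.65 without the 2 extreme leukemias. This was not particular to Ly86. With the same mean Tlr9 had r = 0.73 and rho = 0.82, and Cd180 r = 0.64 and rho = 0.50 (permutation, adjusted p = 0.114 and 0.215 for r). Without the 2 extreme leukemias r was 0.55 and 0.33. Ly96, Tlr9 and Cd14 had r = 0.72, 0.73 and 0.78 with the monocyte mean (permutation, adjusted p = 0.114 each), and 0.83, 0.47 and 0.42 without the 2 extreme leukemias. Tlr1 had r = -0.73 with the B-lineage mean (permutation, adjusted p = 0.114) and -0.39 without them.

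The genes whose deviations from their group means were most like those of each of the 10, over 23 arrays in 4 groups, are a description without a test. For Ly86 they were G2e3 (r = 0.75), Ccdc34 (0.73) and Tex2 (0.72), and for Cd180 AW554918 (0.75), Ralgps2 (0.72) and the cyclin gene Ccnd1 (0.72). Tlr7 had Bmyc (0.93), the G protein regulator gene Rgs18 (0.93) and the interleukin 18 receptor subunit gene Il18rap (0.92). For Tlr9 they were Dock8 (0.84), Camta2 (0.84) and Dennd1c (0.80), and for Unc93b1 the RNA helicase gene Ddx17 (0.82), Dip2c (0.75) and the nuclear receptor gene Ppard (0.74). Tlr1 had Pik3r5 (0.84), Nfatc2 (0.82) and Scamp1 (0.81), and Tlr2 had Lag3 (0.90), Ptms (0.88) and Rarg (0.87). Tlr4 had Rab11fip1 (0.80), Dram1 (0.80) and the Fc receptor gene Fcgr3 (0.78), and Cd14 had P2ry14 (0.90), Cd300c2 (0.89) and Stx3 (0.89). Ly96 had Cmya5 (0.77), Lzts1 (0.74) and Akr1a1 (0.74). Among the 10 genes themselves, Ly86 and Cd180 had a within-group r of 0.59 over the 23 arrays, and Tlr2 and Cd14 had 0.69. Such values can rest on few arrays. The SD of Ly86 was 0.80 and 0.90 in the WT groups, against 0.16 and 0.19 in the Pax5+/- groups. Tlr7 deviated most in leukemia 7 (6.00, group mean 8.77) and in WT preleukemic sample 20 (7.61, group mean 5.63).

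Other genes of the pathway were counted by role. Of all genes tested, 64.6% were called in Pax5+/- leukemia (28% higher and 36.5% lower) and 37.2% in WT leukemia (17.9% higher and 19.3% lower), and the counts of every list below are to be read against these shares. The 5 other Toll-like receptors measured all changed in Pax5+/- leukemia: Tlr8 (log2 difference 0.70), Tlr13 (1.40) and Tlr3 (0.57), sensors of nucleic acids, were higher, and Tlr6 (-0.43) and Tlr12 (-0.25) lower (limma adjusted p = 0.00355, 0.0066, 0.0105, 0.000705 and 0.00746). Their median was 0.57. In each Pax5+/- preleukemic sample 1 of the 5 was above the array median, and in Pax5+/- leukemias 1 to 4 were, so low signals limit these differences. In WT leukemia 1 of 5 was called, Tlr12 at -0.48 (limma adjusted p = 0.00522). Tlr8 and Tlr13 lie on the X chromosome like Tlr7.

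Of 16 adaptors and kinases, 6 were higher and 5 lower in Pax5+/- leukemia (median 0.07), and 3 higher and 4 lower in WT leukemia (median -0.02), close to the shares of 64.6% and 37.2% over all genes. The kinase gene Irak1 was higher at 0.88, the TLR4 adaptor gene Ticam2 (TRAM) at 1.54 and the kinase gene Ikbke at 1.02, with WT differences of 0.60, 1.40 and 0.90. The ubiquitin ligase gene Traf6 was lower at -1.35, the PI3K adaptor gene Pik3ap1 (BCAP) at -1.69 and Tab2 at -0.27, with WT differences of -1.44, -2.21 and -0.25. All of these were called in both genotypes, with limma adjusted p-values of 1.25e-10 (Irak1), 5.92e-09 (Ticam2), 1.69e-07 (Ikbke), 1.25e-10 (Traf6), 1.58e-10 (Pik3ap1) and 0.000189 (Tab2) in Pax5+/- mice. Myd88, the adaptor common to most of the receptors and named here after its value was seen, had 0.12 in Pax5+/- mice and -0.03 in WT mice (limma adjusted p = 0.228 and 0.872).

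Of 5 interferon regulatory factors, 1 was higher in Pax5+/- leukemia, Irf7 at 1.23, and 3 were lower, Irf3 at -0.26, Irf8 at -0.86 and Irf1 at -0.37 (median -0.26). In WT leukemia 2 were lower, Irf5 at -0.99 and Irf8 at -1.44. Of 11 genes for folding, traffic and proteolytic processing of the receptors, 7 were higher and 3 lower in Pax5+/- leukemia (median 0.32), and 4 higher and 2 lower in WT leukemia (median 0.18). The disulfide isomerase gene Pdia3 was higher by 0.88, the cathepsin gene Ctsl by 1.36 and the folding partner gene Cnpy3 by 0.32. The adaptor subunit gene Ap3b1 was lower at -0.32, the endosomal transporter gene Slc15a4 at -0.52 and Cnpy4 at -0.18. Pdia3 (1.07), Ctsl (1.63), Ap3b1 (-0.33) and Slc15a4 (-0.67) were also called in WT leukemia, and Cnpy3 (0.18) and Cnpy4 (-0.05) were not.

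Of 6 genes of ligand handling, 4 were higher and 1 lower in Pax5+/- leukemia (median 0.97), with the integrin gene Itgb2 at 0.90, the lipopolysaccharide-binding protein gene Lbp at 1.03, the scavenger receptor gene Cd36 at 1.05 and Hmgb1 at -0.69. In WT leukemia 0 were higher and 1 was lower, Hmgb1 at -0.89. Of 10 negative regulators, 2 were higher and 5 lower in Pax5+/- leukemia (median -0.38), and 0 higher and 3 lower in WT leukemia (median -0.38). The NF-kB inhibitor gene Tnfaip3 (A20) had -2.03, Tollip -0.33 and the ubiquitin ligase gene Rnf216 -0.43, while Sigirr had 0.51 and the phosphatase gene Inpp5d (SHIP1) 0.30. In WT leukemia Tnfaip3 (-1.93) and Tollip (-0.34) were called, and Rnf216 (-0.20) was not.

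Of 8 genes of B cell signalling to which RP105 is linked, 2 were higher and 5 lower in leukemia of either genotype, with medians of -0.73 in Pax5+/- and -0.90 in WT mice. The kinase gene Syk had -1.80 in Pax5+/- and -1.93 in WT mice, the kinase gene Btk -0.83 and -1.08, and Prkcb -1.05 and -0.98. The phospholipase gene Plcg2 had 0.68 and 0.67, and the exchange factor gene Vav3 1.43 and 0.93. Between genotypes, limma called 0 genes in each of the 7 pathway lists, before leukemia and in leukemia, and the interaction called 0. The shares over all genes were 0.624%, 0.341% and 0.0965%, too low for counts of 0 in such lists to show equal levels. The lists' members share the stage samples with the marker changes given for Tlr7 and Unc93b1, whose part in these counts was not tested.

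**Figure D5:**
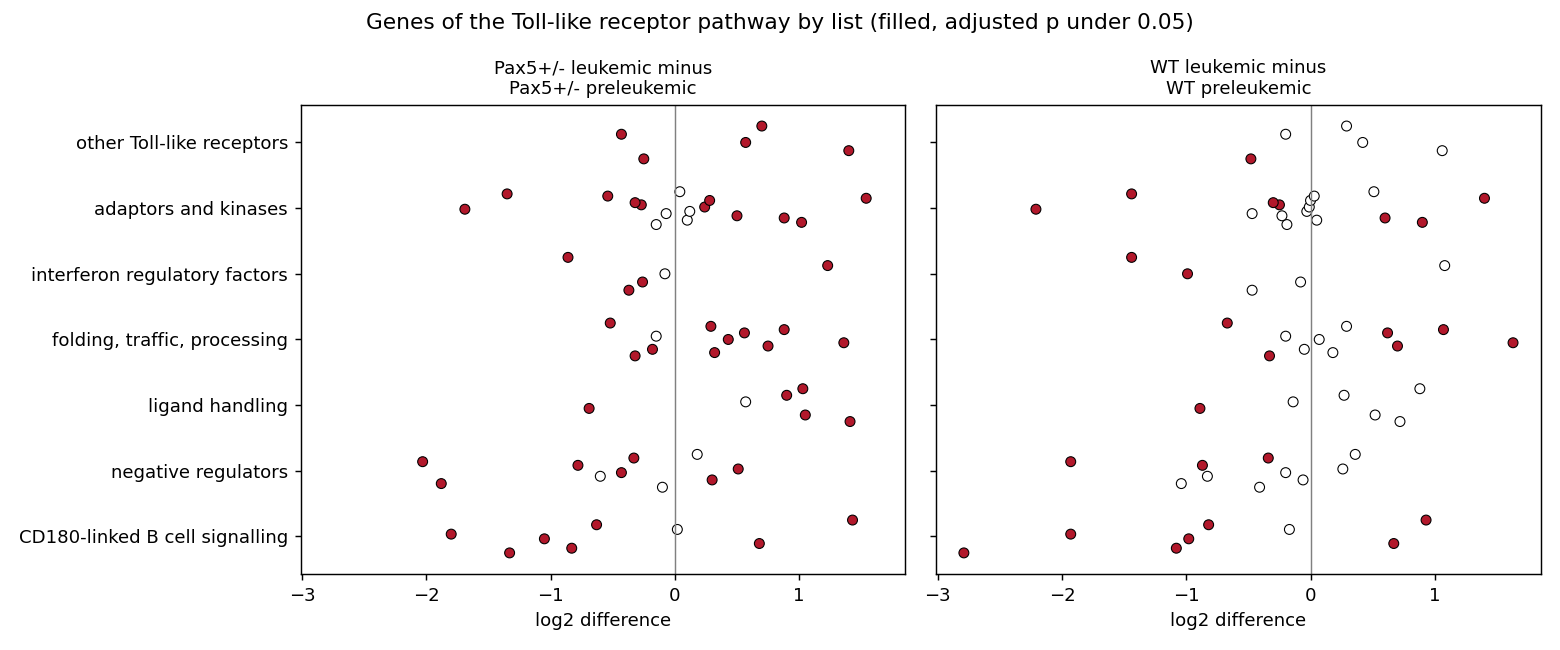
Log2 differences (horizontal axes) of the genes of 7 pathway lists, leukemic minus preleukemic, in Pax5+/- (left) and WT mice (right); each point is a gene and filled points have a limma adjusted p under 0.05. Called genes lie on both sides of 0 in all 7 lists in Pax5+/- mice and in 3 of 7 lists in WT mice, and 5 of 8 CD180-linked signalling genes are lower in either genotype.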

How the data were processed

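RNA of 23 mouse bone marrow samples was hybridised to 1-colour arrays. The deposited values are log2 probe set signals, made with Transcriptome Analysis Console per the submitters' processing notes; background correction, summarization and normalization are not given in the sources used here. Of 28944 probe sets, 21789 carry 1 symbol. The brightest probe set stood for each of 19938 symbols, and 15542 genes above the 30th percentile of their array on at least 3 arrays were tested (4396 were removed). Groups followed the titles. WT leukemia 16 was not analysed here.

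All 4 groups were fitted with limma 3.58.1 in R 4.3.3 (eBayes with trend, two-sided, Benjamini-Hochberg over all genes tested, threshold 0.05). Called means past that threshold. The members and lists were chosen with earlier results of these data known. Named genes were the 10 members, Pax5, Xist, Eif2s3y, up to 3 called genes per direction and pathway list of smallest adjusted p, up to 2 per marker list, and 3 genes of most like pattern per member. Alternatives changed the filter, the prior, array weights, scaling, groups fitted, probe sets, covariates and a random block, or left out each sample; the plasmacytoid covariate, the raising of low values and joint omissions were chosen after seeing the data. The fit was tested on simulated data. Correlations used scipy 1.17.1 and figures matplotlib 3.10.9. The highest correlation between any 2 arrays was 0.9952 and no array was a copy of another.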

Additional observations from a re-analysis of the deposited data

Results flagged for a closer look

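Among 20 groups of 7 or 10 samples tested for a sample far from the others, 2 held one, and chance gives about 1 in 20. Tlr7 was 6.00 in Pax5+/- leukemia 7, 2.53 below the next leukemia (8.53) in a group with a range of 3.44. The same leukemia had the lowest Ly96 and Tlr1 levels of its group (7.67 and 5.62) and the highest B-lineage marker mean (11.26), while its Ly86 (12.22) and Unc93b1 (10.10) lay within those of the other leukemias. Without it the Tlr7 difference between Pax5+/- leukemic and preleukemic samples was 4.28, against 3.97 with it. Tlr2 was 8.13 in Pax5+/- leukemia 2, 0.53 above the next leukemia (7.60) in a group with a range of 0.91, and the same leukemia held the highest monocyte marker mean (9.41).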

How the results depend on the processing

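No paired analysis was run, because the sample numbers are serial and pair no samples across the groups. Each gene had 1 probe set, so another probe set gave no value. Over all alternatives, 5 to 7 of the 10 genes were called between the Pax5+/- stages, 3 to 4 between the WT stages, 1 between the genotypes before leukemia and 0 for the interaction. Between the genotypes in leukemia the number called was 0 to 1 when each sample was left out, with 0 without WT leukemia 15, and 1 under the other settings. Of the log2 differences of the 10 genes, 1903 kept their direction and side of the threshold, 19 came to be called, 11 lost their call and 94 that were never called changed sign. The called differences of Tlr9 and Unc93b1 between the stages stayed called in both genotypes under every alternative run. In 3 cases a difference turned sign that was called before or after the turn: Tlr1 in Pax5+/- leukemia was -0.06 with the B-lineage mean as a covariate, and Cd14 was -1.15 in Pax5+/- and -1.34 in WT leukemia with the monocyte mean; the cause was not tested. With array weights 444 genes were called between the genotypes before leukemia and 127 in leukemia, against 97 and 53 in the fit without weights, and with only the 2 groups of a comparison 231 and 1. Leaving out each sample gave 40 to 137 before leukemia and 0 to 160 in leukemia, 3794 to 6902 between the WT stages (5780 with all samples) and 6 to 98 for the interaction (15). Low signals of Tlr4, Cd14, preleukemic Tlr1 and Tlr7 limit their differences, as do those of most of the 5 other Toll-like receptors measured.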
